A study of Rattus norvegicus with 11 samples.

Results

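Synaptic vesicle release genes were examined in the medial prefrontal cortex (mPFC) of 6 rats that had self-administered heroin and 5 yoked saline rats. Of their 66 tested probes 1, that of Stxbp6, passed the thresholds, and their median log2 change of 0.17 lay beside a median of 0.18 over all tested probes. The genes were chosen by name and not by their values, although earlier results of these data were known at the time. They are the synaptotagmins (Syt), syntaxins (Stx), VAMP proteins (Vamp), syntaxin-binding proteins (Stxbp), complexins (Cplx) and SV2 proteins, together with the synapsins Syn1, Syn2 and Syn3, Syp, Snap25, Snap23, Snap29, Napa, Nsf, Rims1 and Unc13a. Napb belonged to the choice but had no probe of that name. In all, 57 of the 35581 names on the array were members, carried by 73 of its 41012 non-control probes.

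All animals were male rats, 4 months of age. The heroin rats had worked for heroin by licking a spout over 14 days, had then been kept drug-free for 14 days, and were killed directly after an extinction session in the same chambers, during which no drug was given. Each yoked saline rat went through the same procedure and received saline whenever its matched partner received heroin, so that surgery, handling, abstinence and the extinction session were shared by both groups. The groups therefore differ both in the drug received and in the control over its delivery. The tissue was a block of cortex medial to the forceps minor, in which neurons and glia are mixed. In such bulk tissue, fewer cells of a type and less RNA per cell cannot be told apart.

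A synaptic vesicle releases its transmitter when VAMP on the vesicle zips together with syntaxin and SNAP25 on the cell membrane, forming the SNARE complex. Unc13a (Munc13) and Rims1 prepare the vesicle for this step, complexins clamp and assist the partly zipped complex, and synaptotagmins sense the calcium that triggers fusion. After fusion, Nsf and its adaptor Napa pull the complex apart, while synapsins hold reserve vesicles and Sv2a, Sv2b and Syp sit in the vesicle membrane. Several members act elsewhere, for example Stx7, Stx12 and Vamp8 on endosomes and Stx5a, Stx6 and Stx18 in the secretory pathway.

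Signal was measured on single-colour Agilent arrays, 1 per rat, with probes of 60 bases. A value below is the probe's signal divided by the median of its array, called normalised signal, and levels of different probes cannot be compared. A probe was tested where it was detected on all 11 arrays, and was called when its groups differed by 1.4-fold or more with an unadjusted limma p under 0.02, which are the thresholds of the study's methods. Of the members, 66 probes of 52 genes were tested. The 7 remaining probes were not detected on all arrays. They were the only probes of Syt9, Syt10, Stx11, Sv2c and Cplx4, and an additional probe each of Vamp2 and Sv2b.

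Before scaling, the median signal intensity of an array ran from 42.7 to 83.2 units. After scaling, the median log2 change of all 25555 tested probes was 0.18 toward heroin, and it was 0.01 after quantile normalisation, so each change below is read against 0.18. The p-values of limma and of the permutation test are against a change of 0, and not against 0.18. The heroin arrays all lay at position 4 of their slide and the saline arrays all at position 3, so position and group cannot be told apart. Heroin rat 6 and saline rat 5 stood apart from their own groups, with the lowest array weights in limma (0.262 and 0.338, against 0.613 to 3.53 for the others). Of 37 cell type marker genes with a probe, 34 were detected on all arrays. Among them were the neuronal Eno2, Nefl and Tubb3, the cortical glutamatergic Slc17a7 and Camk2a and the GABAergic Gad1, Gad2 and Slc32a1. The others were markers of oligodendrocytes, astrocytes, microglia, endothelium, blood and striatum. Of the 46 tested marker probes, 0 were called (all probes 2.72%). The summed signal of the 4 striatal markers ran from 19.25 to 27.32 in heroin and from 16.61 to 36.45 in saline rats. The summed signal of the 7 oligodendrocyte markers ran from 355 to 888 in heroin and from 298 to 928 in saline rats. That of 3 neuronal markers ran from 379 to 459 in heroin and from 306 to 404 in the 4 saline rats with usable spots for all 3. After quantile normalisation the neuronal sums ran from 347.0 to 420.3 in heroin and from 347.8 to 433.6 in those saline rats. The oligodendrocyte sums then ran from 324.9 to 812.9 in heroin and from 357.4 to 1004 in saline rats. The part of cell composition in the results was not tested.

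Of the 66 release probes, 1 was called, that of Stxbp6, or 1.52%, beside 2.72% of all tested probes. In the direction of heroin the background was 1.79%, and in the opposite direction, where 0 members were called, it was 0.927%. At an unadjusted p under 0.05, 13 members passed (19.7%, against 18.5% of all probes), 11 of them higher in heroin (background 15.7%) and 2 lower (background 2.83%). With Benjamini-Hochberg adjustment of the limma p, 0 members and 0 of all probes passed 0.05, and the smallest adjusted p was 0.263. With limma's array weights, which count heroin rat 6 and saline rat 5 least, 26 of the 66 members and 8154 of all 25555 probes passed it. Leaving out single rats moved the 13 to between 3 and 22, by over 1.5 times for each rat except heroin rat 5. The 3, without saline rat 2, were 4.55% of the members, against 9.3% of all probes. The 1 call moved to 0 without saline rat 3 (all probes 1.54%) and to 6 without saline rat 5. It moved to 2 without heroin rat 4 or 5 (3.03%, all probes 2.62% and 3.68%). Without saline rat 5 the members were close to the background, with 9.23% called against 9.21% of all probes and 33.8% at an unadjusted p under 0.05 against 34.4%. Without heroin rat 6, 33.3% of the members passed that p, against 21.6% of all probes. The methods' t-test likewise gave 0 members after adjustment and 11 at an unadjusted p under 0.05 (16.7%, against 16.1% of all probes). The median log2 change was 0.17 over the members and 0.18 over all probes, and 53 of 66 members (80.3%) were higher in heroin, as were 78.7% of all probes. The interquartile range was 0.04 to 0.29 for the members and 0.04 to 0.29 for all probes. The 95% intervals of 60 of the 66 members held 0.18, the median of all probes.

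After quantile normalisation 0 members were called (background 1.79%) and 3 passed an unadjusted p under 0.05, or 4.55% against 7.71% of all probes. These 3 were Cplx1 and Syt7, which were lower in heroin, and Stxbp6, which was higher. The median of the members was then -0.02, with 31 probes higher and 35 lower.

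**Figure D1:**
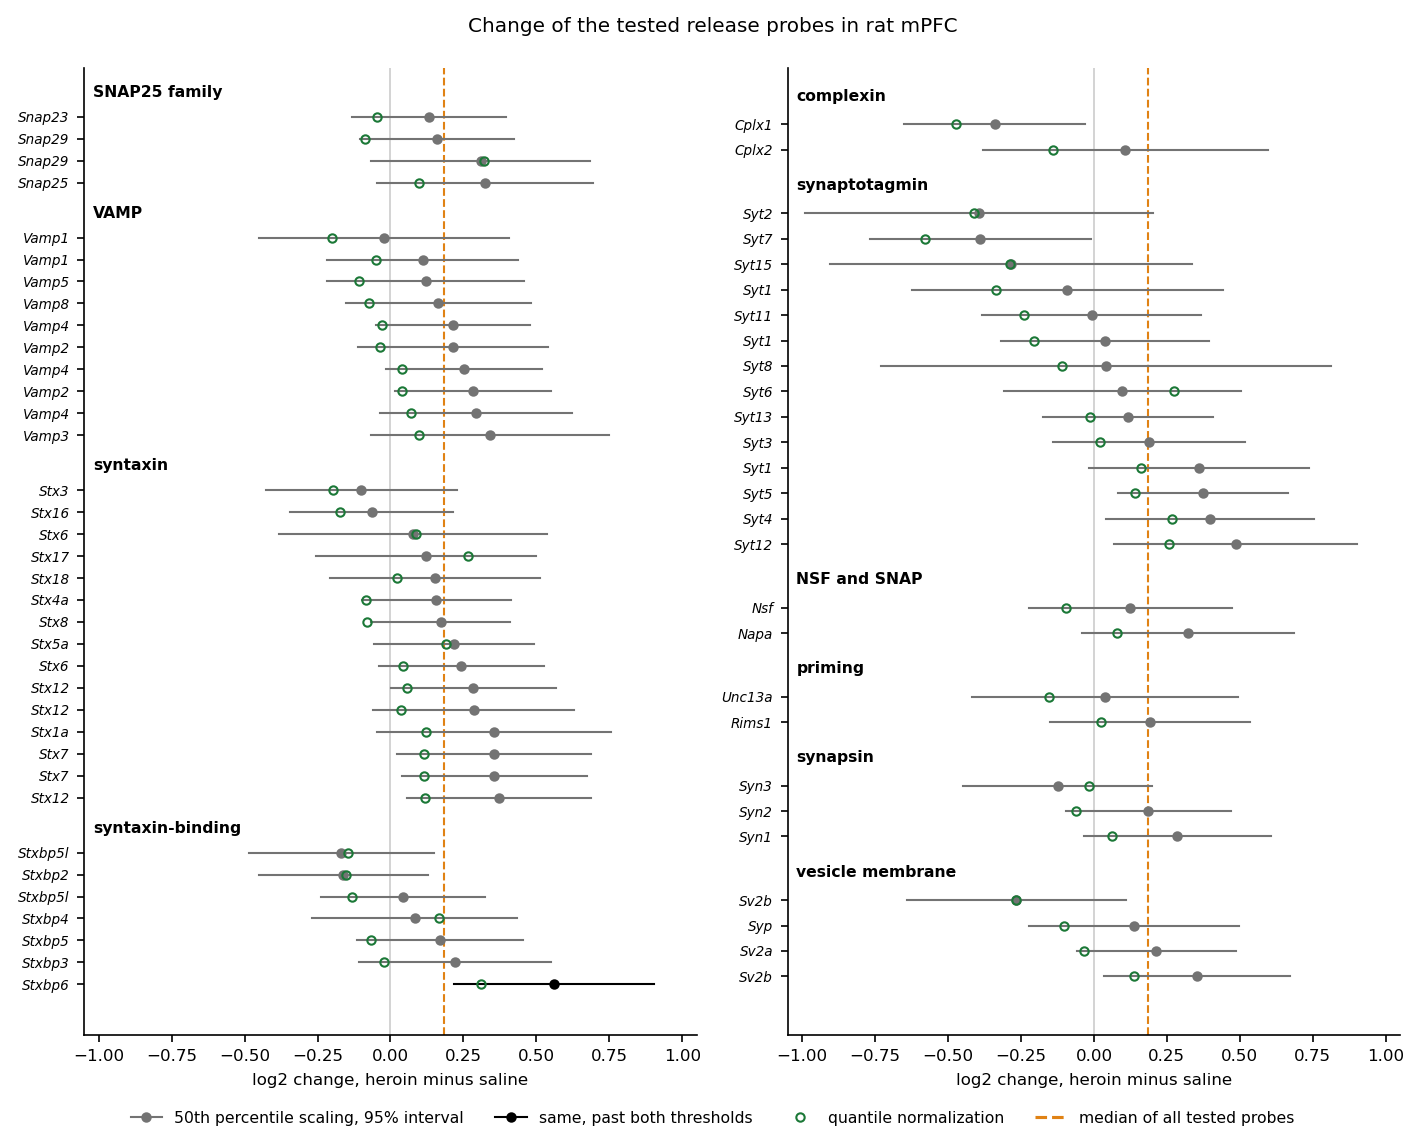
Log2 change between heroin and saline rats (x axis) of 63 of the 66 tested release probes, grouped by role. Filled points and bars are limma estimates with 95% intervals after scaling to the array median, open green points the estimates after quantile normalisation, and the dashed line is the median of all tested probes, 0.18. The points scatter around the dashed line, and 1 probe, Stxbp6, is past both thresholds.

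Only Stxbp6 was called. It encodes amisyn, a protein that binds syntaxin and SNAP25 through a VAMP-like stretch but has no membrane anchor. The probe lies at chr6:64250264-64250323 on the minus strand (rn3, as the array files give it), and the array lists the gene as predicted. Heroin rats ranged from 37.2 to 58.5 in normalised signal with a median of 45.2. Saline rats 2, 3, 4, 5 and 6 had 28.1, 22.6, 34.7, 39.2 and 29.0. Thus 4 of 6 heroin rats exceeded every saline rat, and the groups overlapped only through saline rat 5 and the lower heroin rats. The means were 45.1 ± 7.62 (SD, n = 6) and 30.7 ± 6.38 (n = 5), a log2 change of 0.56 ± 0.16 (limma SE) or 1.48-fold (limma adjusted p = 0.263, exact permutation p = 0.0108, two-sided). The quantile value was 0.31 ± 0.12 (exact p = 0.0173), under 1.4-fold. The call was also lost without saline rat 3 (0.46) or without heroin rat 6 (0.48), although the direction stayed in each case.

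The stretches that follow are the first 30 bases of the called probe and of 3 probes with an unadjusted p under 0.05, each 5′ to 3′ as listed in the array files, shown because these short targets, and not whole transcripts, were measured. Those of Stxbp6 and Syt12 belong to the higher signals in heroin, and those of Cplx1 and Syt7 to the lower ones.
Stxbp6: gatactgagtacagtaccatttttgtttca
Syt12: gatagctcctgtaatgacagggctaagatt
Cplx1: ggaaggcagaggactccaaccacacttgaa
Syt7: acaagcgggtagagaaaaagaagacggtga
Between probes of different member genes, the longest run of identical bases was 12 of 60, so no pair of members shared most of a probe.

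Among the SNARE proteins themselves, no probe was called. Snap25 (chr3:124799349-124799408, plus strand), the SNARE of the presynaptic membrane, had heroin values from 200.1 to 349 with a median of 295. Saline rats 2 to 6 had 172, 215, 199.5, 307 and 229.7, so the groups overlapped widely. The log2 change was 0.32 ± 0.17 (adjusted p = 0.295) and the quantile value 0.10, with a 95% interval of -0.30 to 0.49. The other probes of this family, those of Snap23 and Snap29, lay between 0.13 and 0.31.

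Vamp2 (chr10:55865439-55865498, plus strand), the main vesicle SNARE of the forebrain, had heroin values from 89.1 to 109 with a median of 103. In saline rats 2 to 6 the values were 74.8, 81.8, 89.8, 103 and 72.3. All but 1 of the heroin rats exceeded 4 of the 5 saline rats, and saline rat 5 lay among them. Its log2 change was 0.28 ± 0.13 (adjusted p = 0.264, exact p = 0.026) and 0.04 after quantile normalisation (exact p = 0.673), with an interval of -0.17 to 0.25. The second tested Vamp2 probe gave 0.21. Vamp1, its relative that prevails in brainstem and spinal cord, gave -0.02 ± 0.20 by its brighter probe and 0.11 by the other. The VAMP probes together, 10 of 6 genes, had a median of 0.21, and after quantile normalisation they lay between -0.20 and 0.10.

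Stx1a encodes a syntaxin of the synaptic membrane. Its heroin values ran from 6.95 to 14.8 with a median of 10.8. The saline values were 7.90, 6.16, 8.89, 11.3 and 8.02. The groups overlapped, with a log2 change of 0.35 ± 0.19 (adjusted p = 0.292) and 0.12 after quantile normalisation.

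Over all 17 syntaxin probes of 12 genes, 4 passed an unadjusted p under 0.05, all higher in heroin. These were 23.5%, against 15.7% of all probes higher at that p. The 4 were both probes of the endosomal Stx7 and 2 of the 3 of the endosomal Stx12. After quantile normalisation 0 of the 17 passed an unadjusted p under 0.05. By its brighter probe, Stx7 had heroin values from 27.3 to 39.5 with a median of 36.8. The saline values, from rat 2 to rat 6, were 25.3, 24.0, 27.4, 38.5 and 25.8. Saline rat 5 lay within the heroin range and heroin rat 6 within the saline range. The means gave a log2 change of 0.36 ± 0.15 (adjusted p = 0.263, exact p = 0.0368), the second probe gave 0.36 as well, and both gave 0.12 after quantile normalisation. The exact p of the brighter probe was then 0.320. Stx8, picked out after its values were seen because its groups did not overlap, gave 44.2 to 58.9 in heroin and 42.3 to 44 in saline rats. Heroin rat 6 alone reached 58.9 and the other heroin rats at most 48.8. Stx8 had a log2 change of 0.17 ± 0.11 (adjusted p from limma of 0.355, exact p = 0.00433). The choice by separate groups itself puts this exact p near its smallest possible value, so it adds no support. The quantile value of Stx8 was -0.08 (exact p = 0.372), so the direction turned with the scaling. In all, the groups were separate for 2 of 66 probes, Stx8 included, beside 1.78% of all tested probes. The other probe had usable spots on only 5 arrays, so its separation rests on fewer rats.

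Stxbp2, a syntaxin-binding protein that serves secretion in blood cells and epithelia, gave 0.861 ± 0.0859 (SD, n = 6) in heroin and 0.97 ± 0.157 (n = 5) in saline rats, a log2 change of -0.16 ± 0.14 (adjusted p = 0.455) and -0.15 by quantile. The probes of Stxbp3, Stxbp4, Stxbp5 and Stxbp5l lay between -0.17 and 0.22, and none of them passed an unadjusted p under 0.05.

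Of the complexins, Cplx1 was lower in heroin at an unadjusted p under 0.05, and Cplx2 did not pass it. Cplx1, which clamps and supports the assembling SNARE complex, is found in cortex mainly in inhibitory neurons, while Cplx2 is found mainly in excitatory ones. The Cplx1 probe (chr14:1732341-1732400, plus strand, rn3) had heroin values from 1.34 to 2.03 with a median of 1.63. Saline rats 2 to 6 had 2.02, 2.65, 2.18, 1.79 and 1.87. The 4 lowest values of all rats were in heroin, and the rest overlapped. The log2 change was -0.34 ± 0.15 (limma adjusted p = 0.263, exact p = 0.0346). Quantile normalisation gave -0.47 ± 0.14 (interval -0.78 to -0.17, exact p = 0.0152), and scaling to the 75th percentile gave -0.56, which passed both thresholds. The direction was thus the same under every scaling tried, although the unadjusted call was made only under some. Cplx2 (heroin 19.9 to 47.7, median 39.1) overlapped with saline values of 28.3, 41.4, 47.2, 31.1 and 24.2, with a log2 change of 0.11 ± 0.23 (adjusted p = 0.767, interval -0.38 to 0.60, which holds 0.18) and -0.14 by quantile. On the same arrays, where scaling cancels, the log2 ratio of Cplx1 to Cplx2 was 0.45 lower in heroin on average (heroin minus saline -0.45, with SDs of 0.38 in heroin and 0.29 in saline), and 4 of 6 heroin rats lay below the lowest saline rat. This ratio was computed after the values had been seen and was not tested.

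**Figure D2:**
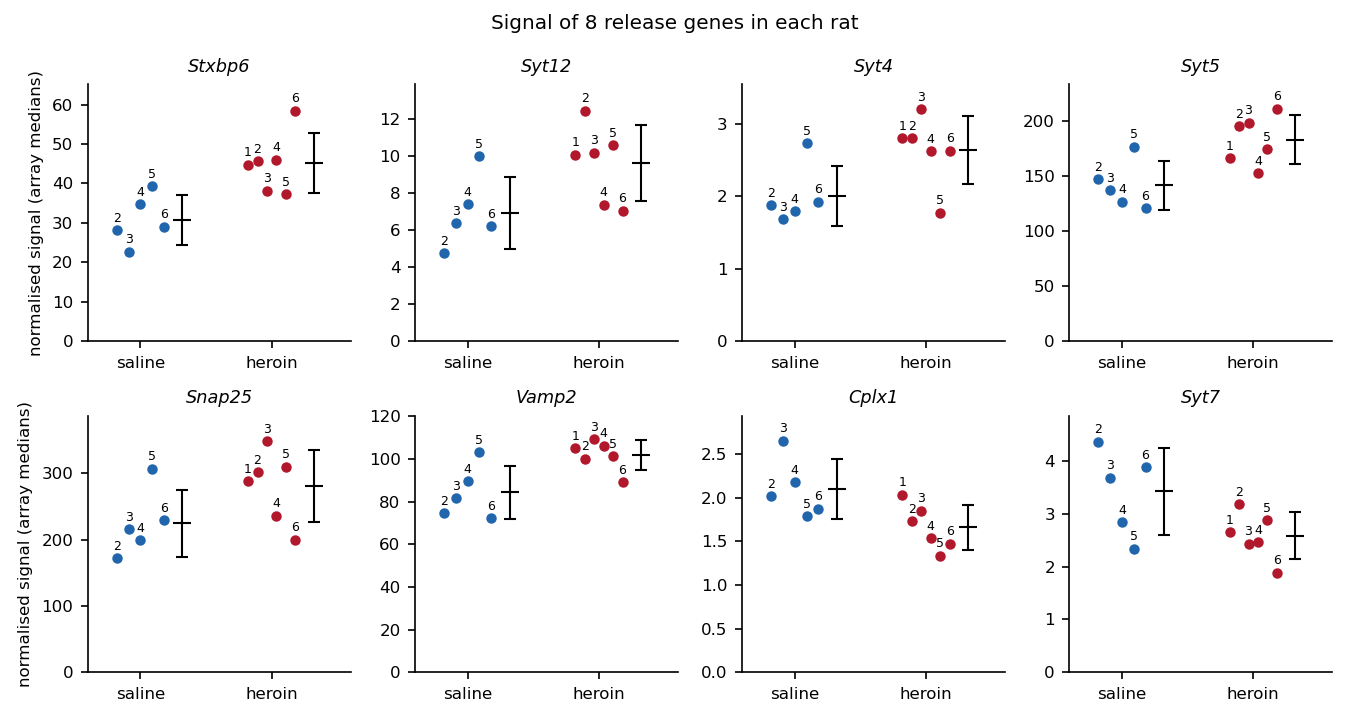
Normalised signal (y axis, in multiples of the array median, starting at 0) of 8 release genes in each saline and heroin rat, with the rat's number above its point and the group mean ± SD at the side. Saline rat 5 has the highest saline value in 6 of the panels, those in which heroin is higher on average, and it has the lowest in the panels of Cplx1 and Syt7.

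Synaptotagmins varied more widely than any other role, from -0.39 to 0.49 on the log2 scale over 14 probes of 12 genes, with a median of 0.07, and 0 of them were called. Syt12 (chr1:207175275-207175334, minus strand), a form without the usual calcium-binding residues, had heroin values from 7.06 to 12.5 with a median of 10.2. In saline rats 2 to 6 the values were 4.75, 6.40, 7.40, 10.0 and 6.20. The groups overlapped through saline rats 4 and 5 and heroin rats 4 and 6. The means gave a log2 change of 0.49 ± 0.20 (limma adjusted p = 0.263, exact p = 0.0498), and 0.26 by quantile (exact p = 0.206).

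Syt4 (chr18:23837313-23837372, minus strand), an activity-regulated form on dense-core and postsynaptic vesicles, had heroin values from 1.77 to 3.20 with a median of 2.71. The saline values, from rat 2 to rat 6, were 1.88, 1.68, 1.80, 2.73 and 1.93. Heroin rat 5 lay among the saline rats and saline rat 5 among the heroin rats, while the others were separate. Its log2 change was 0.40 ± 0.17 (adjusted p = 0.263, exact p = 0.0498) and 0.27 by quantile (exact p = 0.0844). Syt5 (chr1:68091093-68091152, plus strand), a calcium-binding form of secretory vesicles, had heroin values from 152.5 to 212 with a median of 185. The 5 saline rats, numbers 2 to 6, had 147, 137, 127, 177 and 121, and again only saline rat 5 reached the heroin range. Its log2 change was 0.37 ± 0.14 (limma adjusted p = 0.263, exact p = 0.0173) and 0.14 by quantile (exact p = 0.242).

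Syt7, the high-affinity calcium sensor of slow release and vesicle replenishment, was measured at chr1:213090020-213090079 (plus strand, rn3). Heroin rats ranged from 1.88 to 3.18 with a median of 2.56. Saline rats 2 to 6 had 4.36, 3.68, 2.84, 2.34 and 3.88. Saline rat 5 again lay on the heroin side, and the 3 highest values were in saline. The log2 change was -0.39 ± 0.18 (limma adjusted p = 0.268, exact p = 0.0693) and -0.58 by quantile, with an interval of -1.06 to -0.10. Like Cplx1, Syt7 was lower in heroin under every scaling tried, and after quantile normalisation its exact p was 0.0628.

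Syt1 and Syt2 are the fast calcium sensors of release. Syt2, which in cortex marks terminals of certain inhibitory neurons, had heroin values from 0.539 to 1.69 with a median of 0.848. In saline rats 2 to 6 the values were 0.851, 1.81, 1.16, 1.01 and 1.45. The spread within each group was wide, and the log2 change of -0.39 ± 0.28 had an adjusted p of 0.386 and an interval of -0.99 to 0.20. Its quantile value was -0.41. Syt1, the main sensor in forebrain, was measured by 3 probes on the minus strand of chromosome 7. In order of transcription, the first spans the split region chr7:47410251-47696842, the second lies at chr7:47410236-47410295 and the third at chr7:47263766-47263825 (rn3). The first and second probes are shown because they share a run of 32 bases, in capitals, and differ in what lies around it.
Syt1 probe 1: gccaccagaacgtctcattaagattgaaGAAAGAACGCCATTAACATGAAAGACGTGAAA
Syt1 probe 2: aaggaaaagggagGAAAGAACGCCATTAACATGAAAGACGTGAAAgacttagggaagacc
Syt1 probe 3, its first 30 bases: acaatccagtggtacttcaaatcctgtttt
The shared run starts at base 29 of the first probe and base 14 of the second. Their log2 changes were -0.09 ± 0.25 and 0.04 ± 0.17, and the third probe gave 0.36 ± 0.18. After quantile normalisation they were -0.34, -0.20 and 0.16, so the direction of the second probe turned with the scaling. By the second and brightest probe, heroin rats ranged from 20.1 to 34.7 with a median of 31.0. The saline values, from rat 2 to rat 6, were 25.9, 31.2, 37.0, 29.2 and 22.4, so the groups overlapped throughout and saline rat 4 was the highest of all. By the third probe the heroin range was 3.75 to 5.32 with a median of 4.57, and saline rats had 2.68, 2.82, 3.66, 5.47 and 3.37. The adjusted p was 0.893 for the second and 0.275 for the third probe, and the difference between the probes was not tested.

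Of the 11 members with more than 1 tested probe, Sv2b had a saturated probe. Of the 10 others, 7 had probes that all pointed one way and 3 did not, namely Syt1, Vamp1 and Stxbp5l. These signs rest on the scaling. After quantile normalisation 5 had probes that all pointed one way, Vamp1 and Stxbp5l among them, and 5 did not, Syt1, Snap29, Vamp2 and Vamp4 among them. The widest gap between unsaturated probes was 0.45 on the log2 scale, in Syt1, and the narrowest 0.0009, in Stx7. Probes of Vamp2, Vamp4 and Stx12 differed by at most 0.09.

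**Figure D3:**
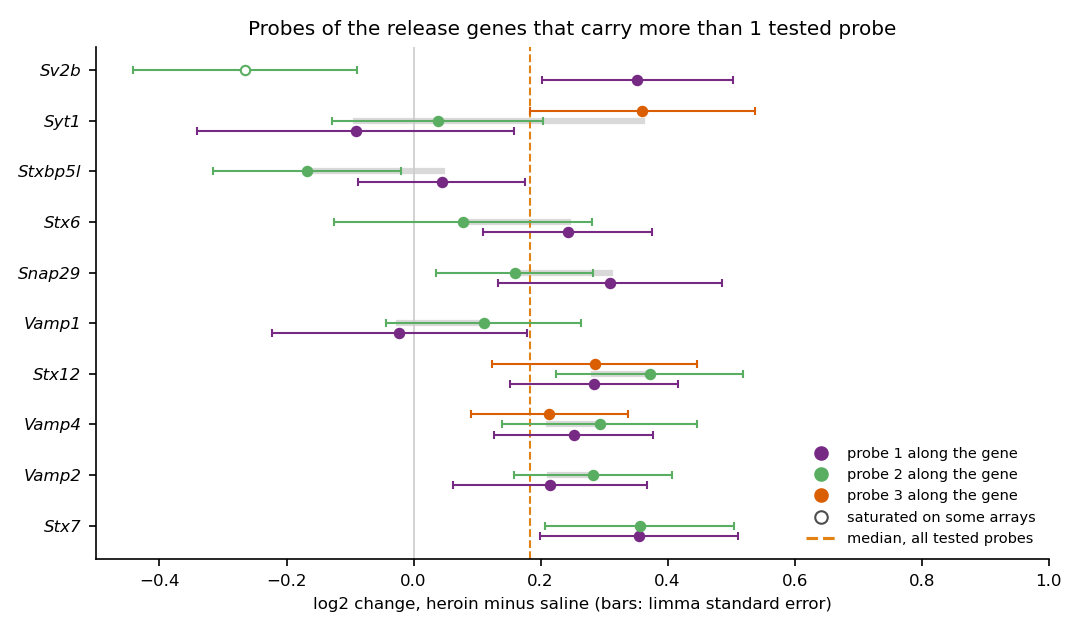
Log2 change between heroin and saline rats (x axis) with limma's standard error for each tested probe of 10 of the 11 release genes measured by more than 1 probe, numbered in the direction of transcription. The grey bar joins the lowest and highest estimate, the open point is the Sv2b probe that was saturated on 7 arrays, and the dashed line is the median of all tested probes. Probes of Stx7, Vamp2, Vamp4 and Stx12 lie together, while those of Syt1 spread from below 0 to above the dashed line.

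The proteins of the vesicle membrane were measured by 4 tested probes. Sv2b is a vesicle glycoprotein enriched in forebrain. Its brighter probe (chr1:130761141-130761200, minus strand, rn3) was saturated on 3 heroin and 4 saline arrays, and gave 643 to 1255 in heroin with a median of 964.5 and 1013, 1264, 1305, 1055 and 893 in saline rats. The log2 change of -0.27 ± 0.18 (adjusted p = 0.361, quantile value -0.27) is thus measured at the top of the scanner's range, where the signal is capped, and gives no reliable size or direction. The second probe (chr1:130763481-130763540) was not saturated and gave 4.72 to 6.60 in heroin with a median of 6.02 and 3.96, 3.67, 4.52, 6.21 and 4.92 in saline rats. Its log2 change was 0.35 ± 0.15 (adjusted p = 0.263, exact p = 0.0411) and 0.14 by quantile (exact p = 0.214). The first 30 bases of both are given because the level of Sv2b could be read by only 1 of them on every array.
Sv2b saturated probe: aggcgtttattcagagtagtttagaagatt
Sv2b second probe: ctatgtttgtatatagcagttttgaggttt
Sv2a, the relative found at nearly all synapses, gave 68.7 ± 10.2 (SD, n = 6) in heroin and 59.0 ± 5.25 (n = 5) in saline rats, a log2 change of 0.21 ± 0.13 (adjusted p = 0.325). Syp (synaptophysin), a membrane protein used to mark vesicles, gave 89.9 ± 16.1 and 81.7 ± 16.0, a log2 change of 0.14 ± 0.17 (adjusted p = 0.604). Their quantile values were -0.04 and -0.10, so both directions turned with the scaling.

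The synapsins, the priming proteins and the disassembly machinery held 7 tested probes, 0 of which passed an unadjusted p under 0.05 (all probes 18.5%). Syn1, a phosphoprotein that tethers reserve vesicles, gave 6.26 ± 1.24 (SD, n = 6) in heroin and 5.08 ± 0.571 (n = 5) in saline rats, with 4 of 6 heroin rats above every saline rat and a log2 change of 0.29 ± 0.15 (adjusted p = 0.290). Syn2, its close relative, gave 0.19 ± 0.13. Rims1, a scaffold of the active zone, gave a log2 change of 0.19 ± 0.16 with an interval of -0.15 to 0.54, and Unc13a, which opens syntaxin for assembly, gave 0.04 ± 0.21 with an interval of -0.42 to 0.49. Nsf, the ATPase that separates used SNARE complexes, gave 0.13 ± 0.16 with an interval of -0.22 to 0.47. Napa, the adaptor that brings Nsf to them, gave 0.32 ± 0.17 with an interval of -0.04 to 0.68, and heroin rat 3 alone reached 35.2 while the others lay between 17.5 and 22.5. After quantile normalisation these 6 named genes lay between -0.15 and 0.08.

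The members were also followed in single rats, as the median deviation of the 66 probes from their saline means. Heroin rats 1 to 6 had 0.26, 0.20, 0.34, 0.16, 0.08 and -0.04. The 5 saline rats, from rat 2 to rat 6, had -0.13, 0.01, 0.04, 0.18 and -0.07. In 10 rats the members stayed within 0.09 of the median of all tested probes. In heroin rat 6 they were 0.17 below it, with 26 of 66 members above their saline mean, against 40 to 56 in the other heroin rats. In saline rat 5, 50 of 66 were above it, against 16 to 37 in the other saline rats.

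**Figure D4:**
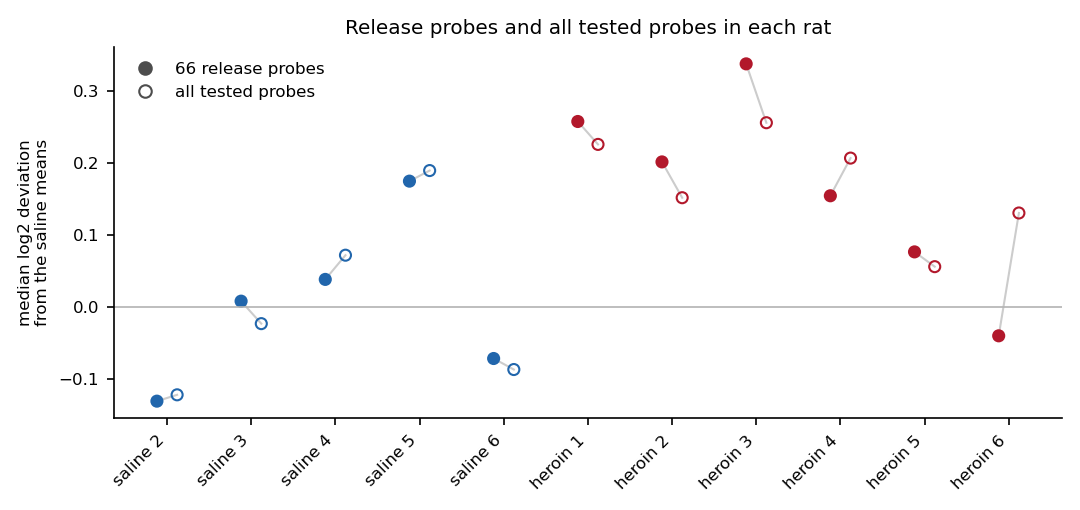
Median log2 deviation from the saline means (y axis) in each rat, for the 66 release probes (filled) and for all tested probes (open). Filled and open points lie close together except in heroin rat 6, where the release probes are at -0.04 and all probes at 0.13, and saline rat 5 lies within the range of the heroin rats.

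Without these 2 arrays, a choice made after the data were seen, 11 of 65 probes of 10 genes were called, all higher in heroin. These were 16.9% of the members, against 10.6% of all probes. Among the 10 genes were Snap25, Snap29, Stx1a, Stx7, Stx12, Stxbp6, Syt1 (by probe 3), Syt4 and Syt12, and the log2 changes of the called probes ran from 0.50 to 0.71. With Benjamini-Hochberg adjustment of the limma p, 18 members or 27.7% passed 0.05, all of them higher in heroin, against 18.4% of all probes. The median was 0.28 for the members and 0.23 for all probes. Because the 2 arrays were those farthest from their own groups, leaving them out lowers the spread by construction, and these p-values are too small. After quantile normalisation of the same 9 arrays, 0 members passed the adjusted threshold and the median of the members was 0.00. Then 4 were called, or 6.15% against 4.98% of all probes. They were Cplx1 at -0.53 and Syt7 at -0.68, and a probe each of Snap29 and Syt6 higher in heroin. At an unadjusted p under 0.05, 14 members passed, or 21.5% against 16.8% of all probes.

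Other genes of the vesicle cycle were read from a list of 83 genes drawn up from general knowledge, with earlier results of these data known. Of these genes, 75 had a probe and 72 a tested one. Of 100 tested probes, 4 were called, all higher in heroin, or 4.0% beside the 2.72% of all probes, and 25 were higher and 0 lower at an unadjusted p under 0.05, against 15.7% and 2.83% of all probes. The median log2 change was 0.21. Without saline rat 5 there were 14 calls, beside 9.21% of all probes called. Without heroin rat 6 there were 7 (all probes 3.08%), and without heroin rat 1 there were 2 (all probes 2.48%). Without heroin rat 3 (all probes 1.86%) or saline rat 3 (all probes 1.54%) there was 1. Of the 4 called, 2 were probes of Synj1 (synaptojanin, which strips the clathrin coat in vesicle recycling), at 0.55 ± 0.17 and 0.52 ± 0.14. The third and brightest Synj1 probe was not called, at 0.31 ± 0.16 and 0.06 after quantile normalisation. The other called probes were those of Svop (a transporter-like vesicle protein) at 0.55 ± 0.20 and Synpr (synaptoporin, a relative of Syp) at 0.57 ± 0.21. The adjusted p of all probes was at least 0.263. After quantile normalisation 0 of the 100 were called and the median was 0.02. By class, 2 of 28 probes for endocytosis and 2 of 16 for vesicle membrane proteins were called, and 0 of those for active zone scaffolds, priming and sensing, the Rab3 cycle, synucleins and release channels.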

How the data were processed

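RNA of rat mPFC, 6 heroin and 5 yoked saline rats, was labelled with Cy3 and hybridised to 1 array per rat. The authors deposited the signal intensity of every spot after background correction in Feature Extraction and without scaling the arrays to each other, and a table of relative values, a ratio of each probe to its median over the arrays, made by the authors in GeneSpring and used here only as an alternative. Control spots were left out, as were those the software had flagged for uneven or outlying signal, intensities below 5 were set to 5, spots of the same probe were averaged, and log2 was taken relative to the 50th percentile of the array. Detection on an array required that at least 0.5 of a probe's spots were well above background. A tested probe needed usable spots on at least 2 arrays of each group.

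Groups were compared with limma 3.58.1 in R 4.3.3 (lmFit and eBayes, two-sided, Benjamini-Hochberg adjustment over all tested probes). The fit was tested on simulated data with 200 changed probes. Single probes were also compared by an exact permutation test over the 462 divisions of the rats, whose smallest possible p is 0.00216. The number of arrays limits the precision. Each array is a different rat by the labels.

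A gene is shown by its brightest tested probe. Named are the called probes, the 5 higher and 5 lower genes with the smallest limma p, and 21 genes of the core of release, of which Napb had no probe. The members and lists were chosen with earlier results of these data known. Replicate numbers follow the scan: rats of one number were scanned together. Deviations of same-numbered rats correlated at 0.384, -0.132, 0.348, 0.0181 and -0.237, so the numbers were not used as a pairing. Alternatives were other scalings, background corrections, filters and tests, array weights, blocks, gene means and leaving out rats. Scaling to the detected probes and leaving out 2 arrays together, also after quantile normalisation, were added after the data were seen. Probe positions are those of build rn3 in the array files. Exons and untranslated regions were not analysed here. The values of 2 genes, which remain in the counts, are not reported here.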

Additional observations from a re-analysis of the deposited data

Results flagged for a closer look

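In 7 of 50 groups of rats examined for the named probes, 1 rat lay far from the others of its group. This was measured as that rat's gap to the nearest rat divided by the range of the group, both in log2 signal. The signals printed beside the gaps are not in log2. Chance flags about 1 in 20 groups. The groups are the same rats read by different probes, so the 7 flags are not independent and were not tested against that rate. Saline rat 5 was the highest saline rat for Syt4 (gap 0.718 of the range, a signal of 2.73 against 1.68 to 1.93) and for Stx7 (0.723, 38.5 against 24.0 to 27.4). Heroin rat 5 was the lowest heroin rat for Syt4 (0.662, 1.77 against 2.62 to 3.20) and for Syt1 (0.685, 20.1 against 29.2 to 34.7). Heroin rat 6 was the lowest for Stx7 (0.696, 27.3 against 35.3 to 39.5) and for Syp (0.693, 59.0 against 86.0 to 102). Heroin rat 3 was the highest for Napa (0.641, 35.2 against 17.5 to 22.5).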

How the results depend on the processing

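The number of called release probes was 1 with all rats and scaling to the array median (1.52%, all probes 2.72%). It stayed at 1 with the 75th percentile (1.52%, all probes 3.05%), with Cplx1 in place of Stxbp6. It was also 1 with normexp (1.52%, all probes 0.493%) and the methods' t-test (1.52%, all probes 1.21%). Gene means (1.92%, all genes 2.46%) and the replicate block (1.56%, all probes 3.13%) gave 1 as well. It was 0 after quantile normalisation (all probes 1.79%). With the authors' relative values it was 0 of 59 (all probes 2.7%), but the Stxbp6 probe was not tested there. It was 2 with no detection filter (2.74%, all probes 3.81%) and 2 with the trend and robust options (3.03%, all probes 2.73%). Array weights gave 9 (13.6%, all probes 9.57%). Without heroin rat 6 and saline rat 5 it was 11 (16.9%, all probes 10.6%), and 4 after quantile normalisation of the remaining arrays (6.15%, all probes 4.98%). The 13 probes at an unadjusted p under 0.05 became 6 with the 75th percentile (9.09%, all probes 9.55%) and 6 with scaling to the detected probes (9.09%, all probes 9.1%). They became 3 after quantile normalisation (4.55%, all probes 7.71%) and 7 with normexp (10.6%, all probes 15.4%). Array weights gave 34 (51.5%, all probes 48.2%). There were 5 with the replicate number as a block (7.81%, 4 of them higher in heroin) and 32 without the 2 arrays (49.2%, all probes 40.4%). With the replicate block, all probes at that p went from 4723 (18.5%) to 2661 (10.5%), the members lower in heroin went from 2 to 1, and the numbers were not shown to pair the rats. The members' median log2 change was -0.0473 with the 75th percentile (all probes -0.0343), -0.0198 after quantile normalisation, -0.0204 with the detected probes, and 0.0019 for the 9 arrays after quantile normalisation, so the direction of the median rests on the scaling. The 4 called probes of the other vesicle cycle genes became 0 with the 75th percentile, quantile normalisation and the detected probes (all probes 3.05%, 1.79% and 2.65%). They became 1 with normexp (all probes 0.493%), 2 with no detection filter (all probes 3.81%) and 2 with the methods' t-test (all probes 1.21%). With array weights there were 18 (all probes 9.57%), and without the 2 arrays 17 (all probes 10.6%). The cause of these moves was not tested. Leaving out each rat in turn gave 0 called members (without saline rat 3, all probes 1.54%) to 6 (without saline rat 5, 9.23%, all probes 9.21%). At an unadjusted p under 0.05 it gave 3 (without saline rat 2, 4.55%, all probes 9.3%) to 22 members. The 22 came without heroin rat 6 (33.3%, all probes 21.6%) or saline rat 5 (33.8%, all probes 34.4%). The members' medians ran from 0.14 to 0.24. Called probes of the other cycle genes ran from 1 (without heroin rat 3, all probes 1.86%, or saline rat 3, all probes 1.54%) to 14 (without saline rat 5, all probes 9.21%). Removing heroin rat 4 or 5 gave 2 called members (3.03%, all probes 2.62% and 3.68%). Of the named probes only that of Stxbp6 was called, and its direction did not change. Uncalled ones did turn: Nsf, Cplx2, Unc13a, Syn2, Syt1, Sv2a and Syp were higher in heroin with scaling to the array median. They were lower with the 75th percentile and after quantile normalisation. By these thresholds a change under 1.4-fold is not called, and the saturated Sv2b probe holds no reliable size or direction.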
